A study of Mus musculus with 2 samples.

Results

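The genes described here are those of the mitotic machinery, read beside the transport motors of the same family: the kinesins (the Kif genes), the centromere proteins (the Cenp genes), the Aurora, Bub and Polo-like kinases with their checkpoint partners, and Mki67, Top2a, Birc5 and Ndc80. They were taken by gene symbol from the annotation of both arrays; no measured value enters that rule, although it was drawn up with earlier results of these data known. The symbols gave 67 genes of 24171 on the arrays, measured by 143 of 44170 sequences. Where a gene had more than 1 sequence, the brightest (by its mean log2 intensity) stands for it. Of the 67 genes, 10 were kinesins of the mitotic spindle, 15 were kinesins of cargo transport and 12 were other kinesin symbols. A further 16 were centromere protein genes and 9 were kinase or checkpoint genes. Aurkaip1, which encodes a binding partner of Aurora A and no kinase, also matched the symbols. No sequence was found under the symbols Plk1, Kif14 or Cenpe, so these mitotic genes were not read.

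The arrays compared long-term blood stem cells (LT-HSC, the marrow cells that can rebuild all blood lineages) of knockout mice for WASH, a protein that starts actin branching on endosomes, with those of wild type mice. Both were of the C57/BL6 strain, and the cells were purified by flow cytometry from the marrow of femurs. Each genotype had 1 NimbleGen array, 2 in all, so no difference below was tested against the spread between animals and none has an error. How WASH was deleted and in which cells, the age of the mice and whether animals were pooled are not given in the sources used here.

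The arrays had median intensities of 137 (control) and 137 (knockout), and probes of random sequence gave levels of 71.3 and 75.7. Washc1, the gene of WASH, was at 119 (control) and 107 (knockout) on its single sequence, and no source used here says whether its probes fall within the deletion, so it checks no label. Among 10 genes listed here as LT-HSC markers, 6 had a value above the median of their array. In the knockout 2 of the 6 were higher and 4 lower. Whether each listed gene, Cd34 among them, marks LT-HSC and not other progenitors was not tested. Kit was at 398 and 489 (log2 difference 0.30) and Cd34 at 746 and 1105 (0.57), while Ly6a was at 835 and 596 (-0.49). Mecom, named after its value was seen, was the 1 marker of the 6 lower by at least 2-fold, at 350 and 163 (-1.10). Over all genes with a value above the median of their array, 7.29% were lower by as much. The 6 sequences of Mecom, dim ones included, ran from -1.65 to 0.49. Procr, Tek and Fgd5 stayed at or below the random-sequence level throughout. Marker genes of other blood cells were present on both arrays and differed between them. All 14 erythroid markers with a value above the median of their array were higher in the knockout. Of these, 10 were at least 2-fold higher (71.4%, beside 6.41% of all genes with such a value). The summed intensity over 15 genes was 11094 (control) and 58671 (knockout), with Hbb-b1 alone at 5699 and 43218. Of 13 such granulocyte and monocyte markers, 10 were lower in the knockout. The 3 higher ones were Csf1r (1.19), Itgam (0.77) and Fcgr3 (0.55), each with sequences on both sides of 0. The sum over 15 genes was 148239 (control) and 60063 (knockout). Its largest parts were S100a8, at 47334 and 16696, and S100a9, at 34133 and 13043. The part of these cell types in the values below was not tested. In such bulk samples, fewer cells of a type and less RNA per cell cannot be told apart.

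Kinesins are motors that move along microtubules. Those of mitosis push spindle poles apart, hold chromosomes at the metaphase plate, shorten microtubule ends or build the midzone where the cell divides, while transport kinesins carry vesicles and organelles in cells of any state. Centromere proteins build the kinetochore, the site where chromosomes meet spindle fibres, and the Aurora, Bub and Polo-like kinases time its attachment and the exit from mitosis. Many mitotic genes are transcribed late in the cell cycle through the cell cycle genes homology region (CHR) together with CCAAT boxes, and S phase genes through E2F sites. Long-term stem cells divide rarely, and Mki67 is commonly used to tell cycling from resting cells among them.

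The promoters are shown for 4 genes that carry these elements close to the transcription start (the mitotic kinesins Kif11, Kif15 and Kif22, and Mki67), for Cenpf, the centromere gene with the highest difference, and for Kif1c, the transport kinesin with the highest difference and none of the 3 elements. Each sequence is the 160 bases before the start from RefSeq, build GRCm38.p6, read along the gene, with the CHR, CCAAT and E2F letters in capitals.
Kif11, chr19:37376222-37376381, plus strand: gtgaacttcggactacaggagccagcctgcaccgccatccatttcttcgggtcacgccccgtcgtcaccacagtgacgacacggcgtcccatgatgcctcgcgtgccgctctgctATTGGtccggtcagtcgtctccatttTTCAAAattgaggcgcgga
Kif15, chr9:122950921-122951080, plus strand: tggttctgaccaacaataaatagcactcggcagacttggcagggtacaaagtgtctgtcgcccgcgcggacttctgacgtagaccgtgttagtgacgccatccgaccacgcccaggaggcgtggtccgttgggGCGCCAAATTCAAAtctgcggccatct
Kif22, chr7:127042421-127042580, minus strand: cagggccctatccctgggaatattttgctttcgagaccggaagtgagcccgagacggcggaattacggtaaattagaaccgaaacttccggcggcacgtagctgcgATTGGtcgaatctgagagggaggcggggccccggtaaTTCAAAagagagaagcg
Mki67, chr7:135716380-135716539, minus strand: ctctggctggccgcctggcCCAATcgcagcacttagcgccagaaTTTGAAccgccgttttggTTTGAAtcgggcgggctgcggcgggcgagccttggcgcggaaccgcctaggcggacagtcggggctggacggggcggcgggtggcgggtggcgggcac
Cenpf, chr1:189688087-189688246, minus strand: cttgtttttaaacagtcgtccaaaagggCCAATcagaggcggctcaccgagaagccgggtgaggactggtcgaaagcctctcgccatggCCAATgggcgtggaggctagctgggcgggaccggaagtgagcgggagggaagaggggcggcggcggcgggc
Kif1c, chr11:70700388-70700547, plus strand: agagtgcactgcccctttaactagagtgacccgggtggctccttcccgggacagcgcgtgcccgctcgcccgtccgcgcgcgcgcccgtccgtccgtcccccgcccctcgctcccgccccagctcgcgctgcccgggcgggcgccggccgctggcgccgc

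The CHR letters searched were TTTGAA or TTCGAA or TTCAAA, the CCAAT box was CCAAT or ATTGG, and the E2F site was TTTGGCGC or TTTGCCGC or TTTCGCGC or TTTCCCGC, or the reverse complement of one of these, so both strands were covered. Windows ran from 250 bases before to 50 bases after the start, and a gene was counted when any of its windows held the letters. In Kif11 the CHR letters began 19 bases before the start and the CCAAT box 45 bases before it. In Kif22 they began 17 and 54 bases before the start. In Kif15 an E2F site 27 bases before the start ran directly into the CHR letters at 19 bases, without overlap. Mki67 held CHR letters at 116 and 98 bases and a CCAAT box at 141 bases in the stretch shown. Cenpf showed CCAAT boxes at 132 and 71 bases, and its only CHR match lay just after the start, outside the stretch shown.

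A window was found for 58 of the 67 genes. The CHR letters stood in 8 of 9 mitotic kinesin genes (88.9%), all but Kif18a, and in 1 of 11 transport kinesin genes (9.09%), Kif1a. Their place differed from that in the promoters shown for several mitotic kinesins. In Kif4, Kif18b, Kif20b and Kif23 they lay only after the start, and in Kif2c they began 103 bases before it. Over all 16260 genes of the arrays with a window the share was 19.1%, and over all 32851 windows it was 19.2%. CCAAT boxes were in 5 of the 9 mitotic and 3 of the 11 transport kinesin genes, beside 42.6% of all genes and 37.4% of all windows. E2F letters were in Kif15 and Kif18a and in no transport kinesin, beside 3.44% of all genes and 2.26% of all windows. The transport kinesin windows were also richer in G and C, with a median of 69.3% beside 60.7% for the mitotic kinesins and 57.0% for all genes. Among the centromere genes, 5 of 16 held CHR letters and 10 of 16 a CCAAT box. A match of letters is a description and shows no bound factor.

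**Figure D1:**
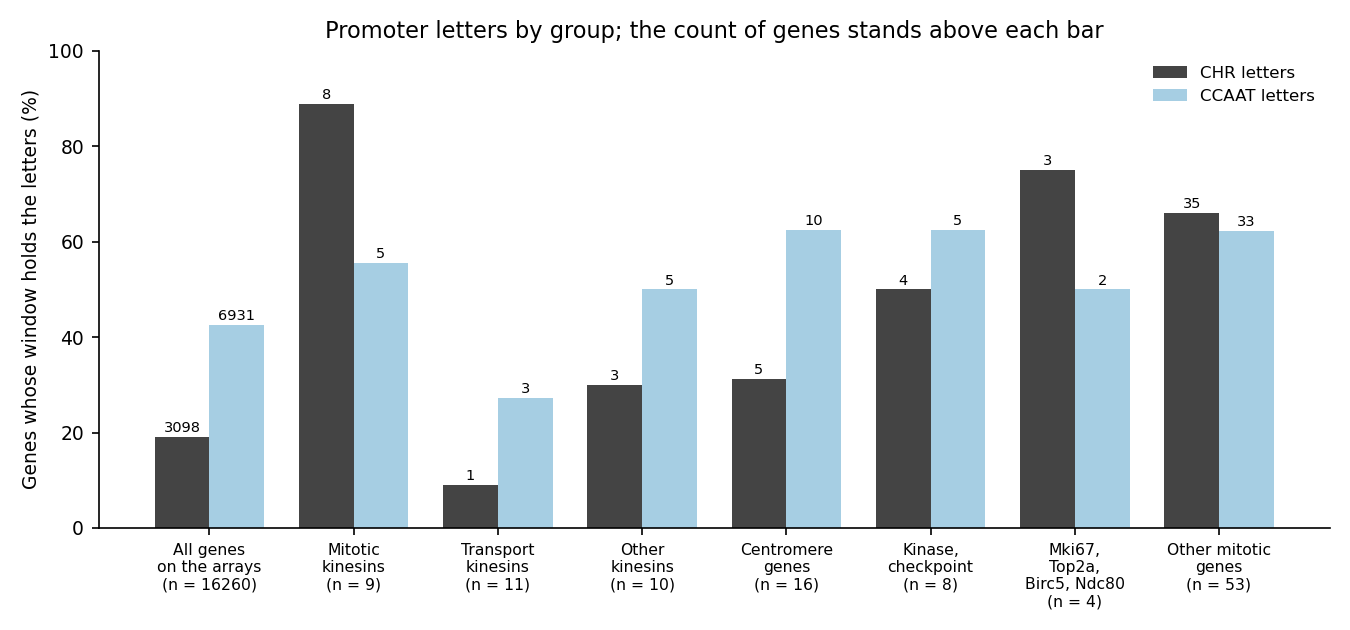
Share of genes, in percent, whose RefSeq promoter window (GRCm38.p6, 300 bases) holds the CHR letters or a CCAAT box. The groups are the roles, a list of other mitotic genes described below and all genes of the arrays with a window. The CHR letters were in 88.9% of mitotic kinesin genes, 9.09% of transport kinesin genes and 19.1% of all genes.

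To leave out values near background, a gene was called detected when its brighter array placed it above that array's median. Detected in this sense were 55 of the 67 genes and 16245 of all genes. Of the 55, 32 were higher and 23 lower in the knockout, with a median log2 difference (knockout minus control) of 0.08, beside 0.03 for all genes in the detected range. At least 2-fold higher were 5 genes (9.09%), beside 6.41% of all genes, and at least 2-fold lower was 1 gene (1.82%), beside 7.29% of all genes. The 5 were Kif12 (1.24), Mki67 (1.18), Cenpf (1.14), Kif1c (1.01) and Aurkc (1.004), and the 1 was Cenpi (-1.31). The differences of 34 genes lay between -0.5 and 0.5, which is 61.8% of the 55 and compares with 56.1% of all genes. These shares come from 1 array a genotype, and a dim gene enters the detected range through whichever array was brighter. Kif12, Kif1c and Aurkc entered only through the knockout array. Their control values were 115, 95.8 and 98.6, below that array's median of 137, so the count of 5 leans on this rule. The median difference was 0.08 over the 21 detected genes with CHR letters and 0.20 over the 25 without.

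**Figure D2:**
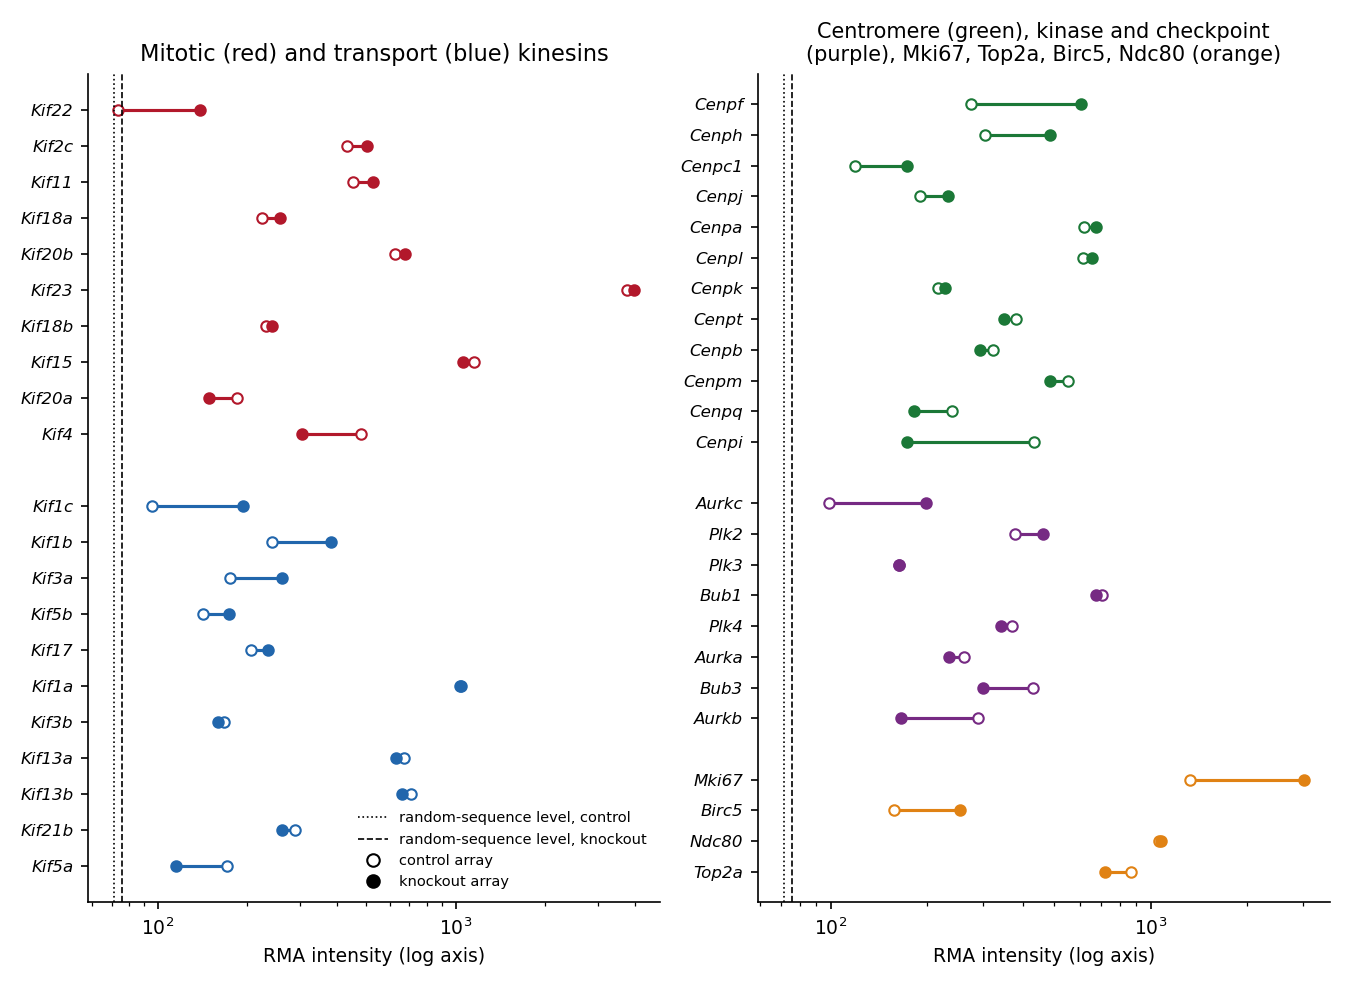
Intensity (log axis) of genes in the detected range on the control and the knockout array, joined by a line and grouped by role. The level of the random-sequence probes is marked, and the other kinesins and Aurkaip1 are not shown. Most pairs of points lie close together, and Mki67, Cenpf and Cenpi are among the pairs farthest apart.

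All 10 mitotic kinesins were in the detected range and none differed by 2-fold. Over all genes in that range, 6.41% were at least 2-fold higher and 7.29% lower, so the count of 10 genes says little. The median difference of the mitotic kinesins was 0.10, with 7 higher and 3 lower in the knockout and a range from -0.65 to 0.91. Kif11, the tetrameric motor that slides spindle poles apart, was at 453 (control) and 526 (knockout), a difference of 0.22. Kif15, which shares that task, was at 1150 and 1057, a difference of -0.12. Kif2c, which strips tubulin from microtubule ends at the kinetochore, was at 431 and 502 (0.22), and all 3 of its sequences lay between 0.01 and 0.22. These 3 motors thus differed little, in both directions.

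Kif18a, which damps the movement of chromosomes at the metaphase plate, was at 223 (control) and 256 (knockout) (0.20). Kif18b, a related motor of astral microtubules, was at 230 and 241 (0.07). Kif22, a motor on chromosome arms, was at 73.7 (control) and 139 (knockout), a difference of 0.91, the highest of the mitotic kinesins. Its control value was 1.03 times the random-sequence level, so that array carried little signal above background for it.

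Kif4, which condenses chromosomes and organises the midzone, was at 481 (control) and 306 (knockout) (-0.65; chromosome X, 97821465 to 97922553, MM9), the lowest of the mitotic kinesins. The symbol Kif4b of the files, which RefSeq lists as the pseudogene Kif4-ps, was higher in the knockout, at 225 and 332 (0.57). Whether probes of Kif4 and of this copy share target sequence was not tested, and both values are uncertain for that reason.

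The motors of cytokinesis differed in both directions. Kif23, the motor of the centralspindlin complex at the midzone, was at 3764 (control) and 3976 (knockout) (0.08), and its 4 sequences in the detected range ran from -0.41 to 0.49. Kif20a, which brings the chromosomal passenger complex to the midzone, was at 184 and 149 (-0.31). Kif20b, a midzone motor needed for abscission, was at 626 and 678 (0.11) on its brightest sequence. The second and the third sequence were lower in the knockout, at 526 and 275 (-0.94) and at 204 and 103 (-0.99), and the last was below the random-sequence level on both arrays, so the direction of Kif20b depends on the sequence.

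**Figure D3:**
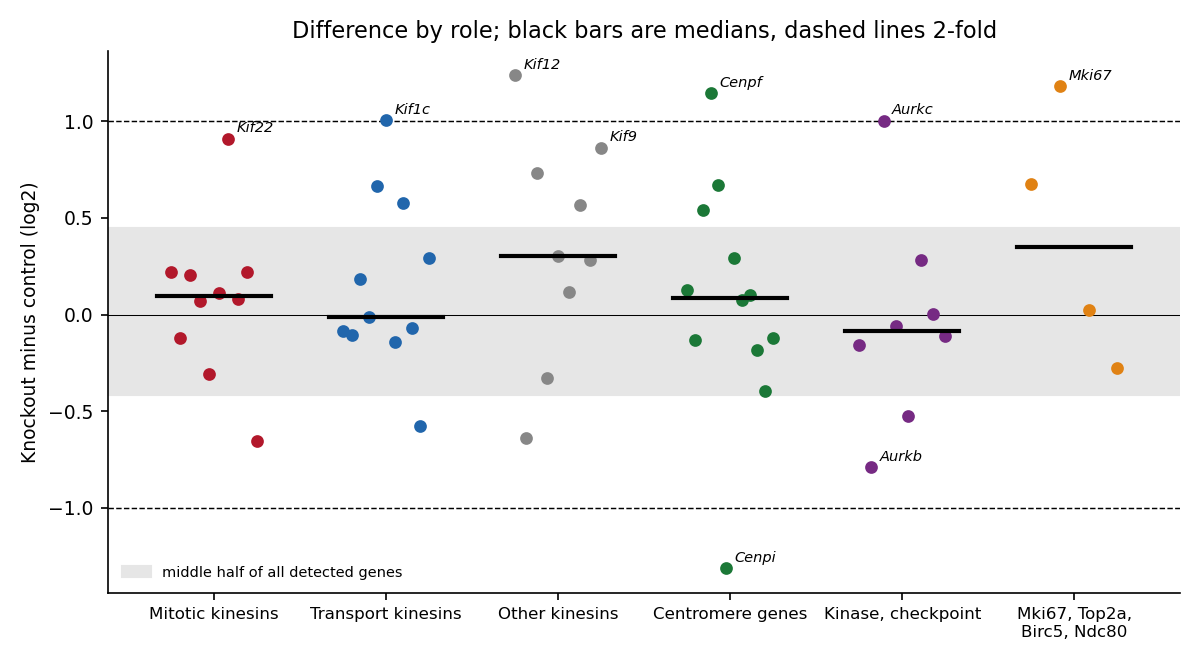
Log2 difference, knockout minus control, of each gene in the detected range by role, with the median of each role as a bar and the 2-fold limits as lines. The mitotic kinesins lie between -0.65 and 0.91 around a median of 0.10, and the transport kinesins between -0.58 and 1.01 around a median of -0.01.

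Of the 15 transport kinesins, 11 were in the detected range, 5 higher and 6 lower, with a median difference of -0.01. The difference between the medians of the mitotic and the transport kinesins was 0.11, with no test of it possible. Kif1c, a carrier of vesicles and integrins, was at 95.8 (control) and 192 (knockout), a difference of 1.01 (chromosome 11, 70514049 to 70520847, MM9). Its other 2 sequences were outside the detected range, and 1 of them was below the random-sequence level on both arrays. Kif1b, a carrier of mitochondria and synaptic vesicle precursors, was at 241 and 382 (0.66; chromosome 4, 148237130 to 148665516, MM9). Its second sequence, at 117 and 180, was also higher (0.62), and its other 2 were below the random-sequence level on both arrays. Kif1a, of the same family, was at 1043 and 1035 (-0.01).

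The kinesin-1 motors Kif5a and Kif5b, which carry mitochondria and many other cargoes, differed in opposite directions. Kif5a was at 171 (control) and 115 (knockout) (-0.58). Kif5b was at 142 and 174 (0.29), and its second sequence was also higher (0.77). Of the kinesin-2 motors, which serve cilia and organelle transport, Kif3a was at 175 and 262 (0.58) and Kif3b at 167 and 159 (-0.07). A second Kif3a sequence was also higher (0.76), and the remaining one, outside the detected range, was lower, at 133 and 52.9. Kif17 was at 205 and 234 (0.19).

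Kif13a and Kif13b, carriers of endosomal and membrane cargo, were at 669 and 632 (-0.08) and at 709 and 660 (-0.10). Kif21b, a motor that also limits microtubule growth, was at 288 and 261 (-0.14). All 3 were slightly lower in the knockout on their brightest sequences only. The second Kif13a sequence was at 237 (control) and 87.0 (knockout) (-1.45), and the third at 135 and 172 (0.35). For Kif21b the second sequence was higher (0.15), so the direction of Kif13a and Kif21b depends on the sequence. Kif3c and Kif21a were not above the random-sequence level in the knockout, and against that level they were at least 1.54-fold and 1.24-fold lower there, while neither was in the detected range. Kif5c and Kif16b were not above that level on any array.

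The 9 detected genes among the other kinesins had the highest median of the kinesin groups, 0.30, with 7 higher and 2 lower. Kif12 had the highest difference of all 55 genes, at 115 (control) and 272 (knockout) (1.24; chromosome 4, 62826667 to 62833080, MM9), measured by a single sequence. Kif9, a motor of sperm and cilia motility, was at 384 and 698 (0.86), and its 3 sequences all lay above 0, from 0.25 to 1.60. Kif24, which keeps centrioles from growing cilia, was at 455 and 755 (0.73). Its second sequence was also higher (0.21), and its other 2 were outside the detected range. Kif2a, a depolymerising motor of spindle poles, was higher by 0.12 on its brightest sequence, while another was at 805 (control) and 430 (knockout), a difference of -0.90. Kif6 (0.28) and Kif26b (0.30) were higher, and Kif19a (-0.64) and Kif26a (-0.33) were lower. Kif2b, Kif7 and Kif27 were outside the detected range. Over all 37 kinesin symbols, 30 were in the detected range, 19 higher and 11 lower, with a median of 0.15.

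Of the 16 centromere genes, 12 were in the detected range, 7 higher and 5 lower, with a median of 0.09. They held the lowest difference of all 55 genes, that of Cenpi, and one of the highest, that of Cenpf. Cenpa, the histone H3 variant that marks the centromere, was at 617 (control) and 675 (knockout) (0.13), with sequences from -0.12 to 0.72. Cenpf, a large kinetochore protein that accumulates in G2, was at 274 and 605 (1.14; chromosome 1, 191480523 to 191511965, MM9). Its second sequence was at 300 and 389.8 (0.38) and the remaining one at 162 and 145 (-0.16), so the 2-fold difference rests on 1 of 3 sequences.

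Cenpi, which helps to load new CENP-A, was at 431 (control) and 173 (knockout) (-1.31; chromosome X, 130881361 to 130897178, MM9). Its second sequence, at 166 and 149, differed by -0.15, and the remaining one, at 59.6 and 112, was outside the detected range and below the random-sequence level in the control. The inner proteins that bind CENP-A chromatin and on which the outer kinetochore is built (Cenpc1, Cenph, Cenpi, Cenpk, Cenpl, Cenpm, Cenpn, Cenpo, Cenpp, Cenpq and Cenpt) were measured by 11 genes, 8 of them in the detected range, 4 higher and 4 lower, with a median of -0.02. Cenph was at 304 and 484 (0.67) and Cenpc1 at 119 and 173 (0.54), while the second Cenpc1 sequence was below the random-sequence level on both arrays. Cenpq was at 239 and 182 (-0.40). Cenpk (0.08), Cenpl (0.10), Cenpm (-0.18) and Cenpt (-0.12) lay near 0 on their brightest sequences. The second sequences of Cenpk (-0.50) and Cenpl (-0.22) were lower in the knockout. The network thus had no common direction on these arrays.

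Cenpn, which reads CENP-A on the nucleosome, was at 102 (control) and 34.2 (knockout), where it was not above the random-sequence level, and it was at least 1.35-fold lower there. Cenpb, which binds a repeat of centromeric DNA, was at 322 and 293 (-0.13), and its second sequence was at 71.7 and 320 (2.16), with the control at about the random-sequence level. Cenpj, a centriole protein despite its symbol, was at 190 and 233 (0.29). Cenpo, Cenpp and Cenpv were not in the detected range.

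The kinase and checkpoint genes had a median of -0.08 over 8 detected genes, 3 higher and 5 lower. Aurka, the Aurora kinase of spindle poles, was at 262 (control) and 235 (knockout) (-0.16), while its second sequence differed by 0.24. Aurkb, the Aurora kinase of the chromosomal passenger complex, was at 288 and 166 (-0.79), measured by a single sequence (chromosome 11, 68859163 to 68865166, MM9). Birc5, the survivin subunit of the same complex, was higher in the knockout, at 158 and 253 (0.68), so these partners differed in opposite directions. Aurkc, the Aurora kinase known mainly from germ cells, was at 98.6 and 198 (1.004; chromosome 7, 6948213 to 6955802, MM9), and its control value was 1.38 times the random-sequence level. Aurkaip1 was at 148 and 92.9 (-0.67).

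Of the spindle checkpoint genes, Bub1, the kinase that marks kinetochores for the checkpoint, was at 705 (control) and 676 (knockout) (-0.06). Bub3, its binding partner, was at 430 and 299 (-0.52). Bub1b, which encodes the checkpoint protein BubR1, stayed below the random-sequence level on both arrays, at 43.1 and 27.7. Among the Polo-like kinases, Plk4, which starts centriole duplication, was at 368 and 341 (-0.11), and its other 3 sequences were outside the detected range. Plk2, a stress and centriole kinase, was at 378 and 459 (0.28) and its second sequence at 66.3 and 284 (2.10), the control being below the random-sequence level. Plk3 was at 163 on both arrays (0.003), and Plk1 was not among the genes read.

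Mki67, the perichromosomal protein used as the standard marker of cycling cells, was at 1325 (control) and 3009 (knockout), a difference of 1.18 (chromosome 7, 142891753 to 142908042, MM9). These values were 18.6 and 39.8 times the random-sequence level. All 3 of its sequences were bright and all were higher in the knockout, at 1335 and 1985 (0.57) and at 1230 and 2270 (0.88) for the others. Of the 3, 1 reached 2-fold. Top2a, the topoisomerase that untangles sister chromatids and another common marker of cycling, was at 869 and 718 (-0.28), the opposite direction. Ndc80, the kinetochore protein that holds the microtubule, was at 1059 and 1077 (0.02). Thus Mki67 and Birc5 were higher and Top2a lower, while Ndc80 lay at about the median of all detected genes (0.03). Birc5, Ndc80 and Top2a were each measured by a single sequence.

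Where a gene had several sequences in the detected range, these often disagreed. Among 21 such genes of the set with 52 sequences, the pooled SD between sequences of 1 gene was 0.622 (log2), beside 0.657 over 4969 genes of the arrays. All sequences differed in the same direction in 9 of the 21 (42.9%), beside 45.9% of all such genes. Kif1b, Kif24, Kif2c, Kif3a, Kif5b, Kif9, Mki67 and Plk2 were higher throughout, and Cenpi lower. The SD is a spread between probe sets on the same arrays and holds no variation between animals. Most of the 55 differences were no larger than it.

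**Figure D4:**
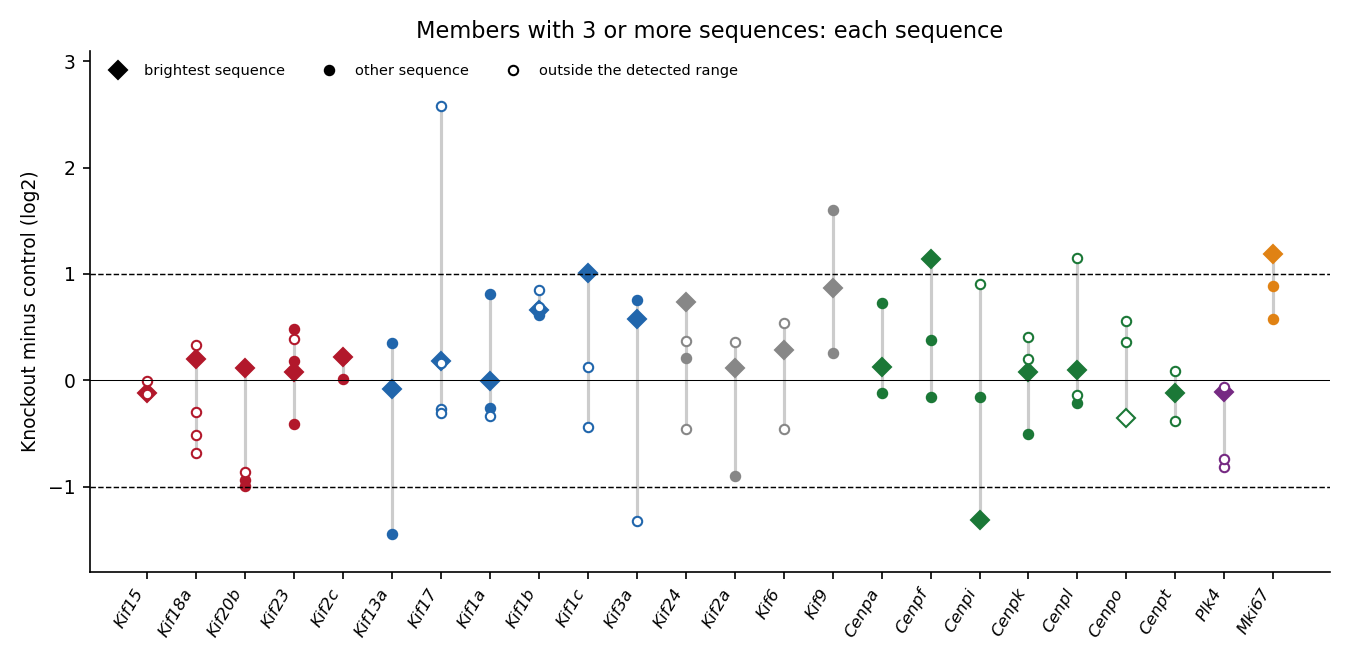
Log2 difference, knockout minus control, of every sequence of the genes with at least 3 sequences, with the brightest sequence marked and sequences near background included. The sequences of Mki67, Kif9 and Kif1b all lie above 0, and those of Cenpf and Cenpi lie on both sides of 0.

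Other genes of mitosis, taken from a list of checkpoint, kinetochore, condensin, cyclin and cytokinesis genes among others, were read beside these. Of 70 listed genes 67 were measured and 56 were in the detected range, 28 higher and 28 lower, with a median of 0.03. At least 2-fold higher were 2 (3.57%, beside 6.41% of all genes) and at least 2-fold lower 1 (1.79%, beside 7.29%). The higher ones were Spc25, a partner of Ndc80 in the same complex, at 323 (control) and 808 (knockout) (1.32), and Ska2, a microtubule coupler of the kinetochore, at 372 and 832 (1.16). Each had 3 sequences, dim ones included, on both sides of 0. Mis18a, which prepares centromeres for new CENP-A, was the lower one, at 897 and 391 (-1.20). CHR letters stood in 35 of the 53 of these genes with a window (66.0%). This wider list was split evenly between higher and lower.

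**Figure D5:**
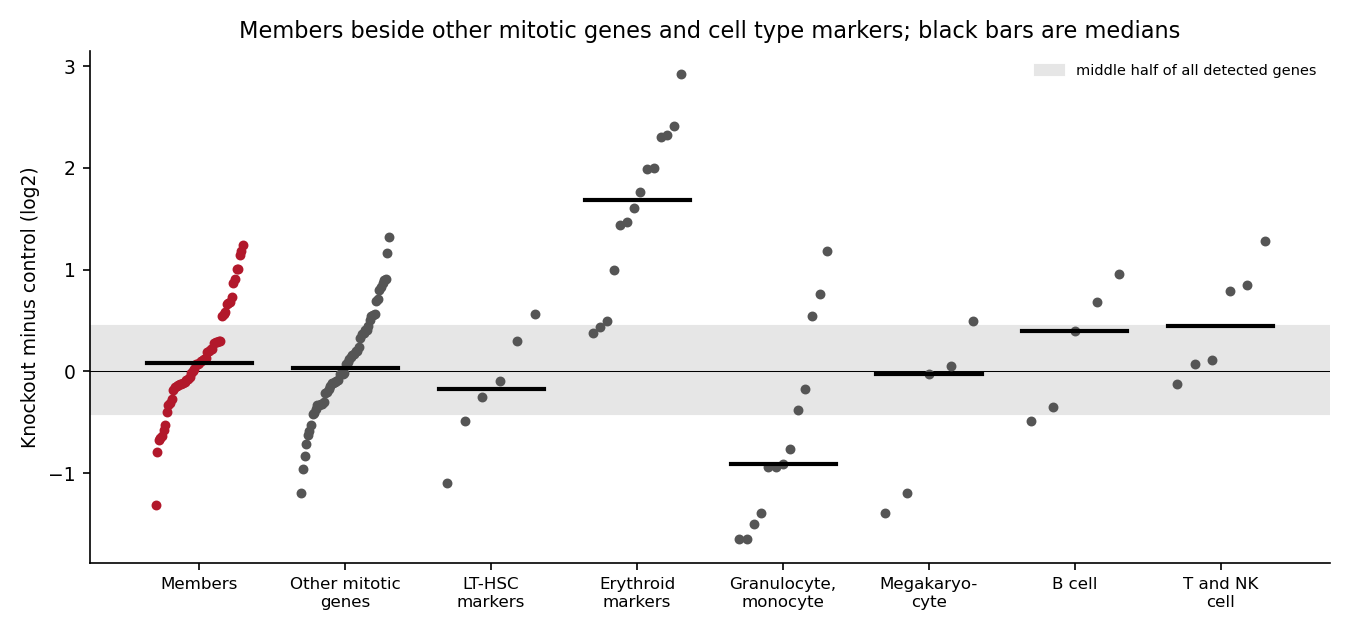
Log2 difference, knockout minus control, of the genes in the detected range in the set, in the list of other mitotic genes and in the lists of cell type markers, with each median as a bar. The median was 0.08 for the set, 0.03 for other mitotic genes, 1.68 for erythroid markers and -0.91 for granulocyte and monocyte markers.

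The erythroid and the granulocyte and monocyte markers had medians farther from 0 than the mitotic genes. The median was 1.68 over the 14 erythroid markers in the detected range, where the globin gene Hbb-b1 was at 5699 (control) and 43218 (knockout) (2.92). It was -0.91 over the 13 granulocyte and monocyte markers, where S100a8, a calcium binder of neutrophils, was at 47334 and 16696 (-1.50). The 6 detected genes of the LT-HSC list showed a median of -0.18. The summed intensity over all 10 listed genes was 3087 (control) and 3088 (knockout). These near-equal sums combine opposite differences, with 2 detected genes higher (Kit and Cd34) and 4 lower. The medians were -0.02 for 5 megakaryocyte, 0.40 for 5 B cell and 0.45 for 6 T and NK cell markers, with Cd3d and Cd3g not above the random-sequence level. The part of these cell types in the values of Mki67 or of any other gene above was not tested.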

How the data were processed

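Total RNA of LT-HSC was measured on 1-colour NimbleGen arrays, 1 for each genotype. The authors deposited 1 linear intensity per sequence, made with RMA per the submitters' processing notes (version: not given in the sources used here). All member sequences had 3 probes and MM9 coordinates, per the file headers. RMA pulls arrays to like distributions, so a shift shared by most genes would not be visible. Differences are log2 knockout minus log2 control, computed with pandas 2.3.3 and numpy 2.4.6 on Python 3.11.15, with statsmodels 0.14.6 for loess. With no replicates, counts use a fixed size of 2-fold, and the number of arrays limits the precision. Detected means above percentile 50 of the own array on the brighter one. A gene at or below the level of the 5000 random-sequence probes on 1 array has its fold given as a bound against that level.

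The members, gene lists and sizes were chosen with earlier results of these data known. Values are given for every member at 2-fold or more, all detected mitotic and transport kinesins, the kinases, Cenpa, Cenpf, Mki67, Top2a, Birc5 and Ndc80, and other listed mitotic genes at 2-fold. Further members named are examples chosen after their values were seen. Kifc1 was not analysed here, since its identifier in the files belongs to another symbol in RefSeq. Names of members were kept as in the files. The steps were tested on simulated data. Alternatives were other scalings, an offset, other choices of sequence, other filters, other sizes and other memberships.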

Additional observations from a re-analysis of the deposited data

How the results depend on the processing

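Each genotype has 1 array, which limits every value above; no difference has an error. No paired analysis was possible because the groups share only replicate number 1. The count of members at least 2-fold higher (5) was 3 with quantile normalization (beside 6.41% of all genes) and 3 with loess (beside 6.21%). It was 2 with an offset of 50 before the log (beside 3.53%), and 2 of 30 members left by a percentile 75 filter (beside 5.68%). When both values had to be 2 times the random-sequence level, it was 2 of 45 left (beside 3.77%). At 1.5-fold the count was 11 and at 3-fold 0. Over all genes, 18.5% were 1.5-fold higher and 1.49% 3-fold higher. The count at least 2-fold lower (1) was 0 with a mean over the sequences of each gene (beside 5.77% of all genes). With no filter on dim genes it was 2 (beside 6.42%). At 1.5-fold it was 5 and at 3-fold 0, and over all genes 18.3% were 1.5-fold and 1.72% 3-fold lower. With the dimmest sequence in place of the brightest, the sign turned for Cenpf (-0.16), whose dimmest sequence was above background, and for Cenpi (0.91) and Kif1c (-0.44), whose dimmest sequences were below that of random probes in the control (for Kif1c on both arrays), so these values say little; Mki67 was at 0.57. With the mean of the sequences, Mki67 was at 0.88, Cenpf at 0.45, Kif1c at 0.23 and Cenpi at -0.19. Aurkc was just under 2-fold with median centring (0.998), quantile normalization (0.992) or loess (0.993), and so was Kif1c with quantile normalization (0.996) or loess (0.996). With the offset Aurkc was at 0.74, Kif1c at 0.73 and Kif12 at 0.96. The median of the members ran from 0.003 to 0.11 over all settings, that of the mitotic kinesins from 0.04 to 0.15, that of the transport kinesins from -0.08 to 0.03 and the difference between the kinesin medians from 0.10 to 0.18. The centromere median was 0.24 with the mean of the sequences, 0.29 with the dimmest and -0.13 with dim genes kept. The kinase and checkpoint median was 0.24 with the dimmest sequence. Among the other mitotic genes, the number at least 2-fold higher (2) was 0 with the mean of the sequences (beside 4.87% of all genes). It was 1 with the dimmest (beside 7.44%), 9 at 1.5-fold and 0 at 3-fold. The number lower (1) was 2 with the dimmest (beside 9.10%), 6 at 1.5-fold and 0 at 3-fold. The median of these other mitotic genes was -0.08 with the dimmest sequence. The cause of these differences was not tested.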

Other observations

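RefSeq now gives matching symbols to genes that the arrays name otherwise, and these were read after the data were seen. Cenpu, named Mlf1ip in the files, was at 233 (control) and 120 (knockout) (-0.96). Cenpx, named Stra13, was at 319 and 574 (0.85), and Cenpw was at 505 and 416 (-0.28). Cenps, named Apitd1, and Kif28 were not in the detected range. None of the 3 in the detected range differed by 2-fold, beside 6.41% higher and 7.29% lower over all genes. Adding them left both counts of members at 2-fold or more unchanged.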
